A study of Mus musculus with 7 samples.

Results

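Mitochondria in a heart muscle cell are joined, split, copied and cleared by nuclear-encoded proteins, and 10 genes that carry out or direct these steps were described here in hearts of mice that overexpress Nrf2, the transcription factor that drives antioxidant and detoxifying genes. The 10 genes were matched by name, with no threshold on their values, and are Mfn1, Mfn2 and Opa1 (fusion), Dnm1l, Fis1 and Mff (fission), Tfam and Polg (mitochondrial DNA), Nrf1 (a regulator of biogenesis) and Pink1 (clearance of damaged mitochondria). All 10 of them were found among the 14641 genes of the count table, and all 10 passed the filter on low counts that left 14637 genes for the test. The gene Nrf1 codes for nuclear respiratory factor 1, which is unrelated to the transgene Nrf2 (gene symbol Nfe2l2) despite the like name. RNA came from the whole heart lysate of male C57BL/6J mice in 2 groups, 4 non-transgenic (NTG) hearts and 3 mNrf2-TG hearts, in which the αMHC promoter drives full-length mouse Nrf2 in cardiomyocytes. The NTG mice were littermates. The mNrf2-TG hearts were labelled as 6 months old, the NTG hearts carry no age label, and the design text gives older mice. Each library was taken as 1 heart, although the labels do not state this, so the p-values measure the spread between these libraries.

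The 10 proteins act in a chain that is well known from work on the heart. Mfn1 and Mfn2 join the outer membranes of neighbouring mitochondria and Opa1 joins the inner membranes and holds the cristae in shape, whereas the GTPase Dnm1l (Drp1) is drawn to the outer membrane by receptors such as Mff and Fis1 and cuts the organelle. New mitochondria need copies of their own genome, which Tfam packs and Polg copies, and Nrf1 switches on nuclear genes for the respiratory chain and for Tfam, while Pink1 builds up on damaged mitochondria and marks them for removal.

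All hearts were sequenced to a like depth, and the targeted gene was high in every library labelled as transgenic and in no other. The libraries of NTG hearts held 6534684 to 8405857 counted reads and those of mNrf2-TG hearts held 6953122 to 8060644. Nfe2l2 reached 10753 to 12033 normalised counts (reads scaled to a common library size by the TMM method) in mNrf2-TG hearts against 752 to 1402 in NTG hearts. Cardiomyocyte markers were abundant everywhere, with a summed level of 500714 to 534296 normalised counts in NTG hearts against 425262 to 445804 in mNrf2-TG hearts, and 2 of the 6 markers were lower. The 5 leukocyte markers summed to 1415 to 1650 in NTG and 2294 to 2965 in mNrf2-TG hearts, with 4 higher, and the 5 fibroblast markers summed to 7241 to 9374 and 9939 to 10370, with 3 higher. Endothelial markers summed to 5462 to 6175 and 5054 to 5400, with 1 of 5 higher and 2 lower, and smooth muscle and pericyte markers to 1918 to 2132 and 1552 to 1866, with 1 of 4 lower. The 3 atrial markers tested summed to 685 to 1447 and 2026 to 3889, with Nppa alone higher. That sum was nearly all Nppa (670 to 1416 and 1987 to 3866), which the paper counts among its hypertrophy markers. Myl4 reached at most 59.0 and Myl7 at most 4.13 normalised counts. The 6 skeletal muscle markers summed to 14976 to 26892 and 12750 to 14339, with 3 lower. Most of this was Ckm (12577 to 16492 and 10005 to 11078), while Tnnt3 reached at most 3.94. Acta1 stood at 9172 in NTG replicate 3 against 1568 to 2108 in the other NTG hearts. None of the 3 erythroid markers passed (1001 to 1627 and 642 to 1434). Adipocyte markers were near 0 and summed to at most 19.97 normalised counts. In whole-heart RNA, fewer cells of a type and less RNA per cell cannot be told apart, and the part of these shifts in the differences described next was not tested.

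Of the 10 genes, Fis1 was the only one that differed between the groups at an adjusted p under 0.05. This threshold, with p from edgeR's quasi-likelihood test and Benjamini-Hochberg adjustment over all genes tested, is what "called" means here. A call was made for 17.2% of all genes, for 8.48% with higher levels in mNrf2-TG hearts and for 8.73% with lower levels, so 1 call among 10 genes is a share near that of all genes. At an unadjusted p under 0.05 the count was 4 of 10 (Mfn1, Fis1, Nrf1 and Pink1) against 32.2% of all genes. The 2 groups did not overlap for 3 of 10 genes against 29.7% of all genes, which were Fis1 and Pink1 on the higher side (15.0% of all genes) and Mfn1 on the lower side (14.7%). The Log2FC (mNrf2-TG minus NTG, log2 scale) was above 0 for 5 and below 0 for 5 of the 10 genes. Its median size without sign was 0.14 beside 0.26 over all genes tested. These 2 medians are not at a like depth, since the genes tested include all with a summed count above 1. The 10 genes had between 70 (Nrf1) and 8759 (Mfn2) reads per library, and genes of like depth were not compared.

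**Figure D1:**
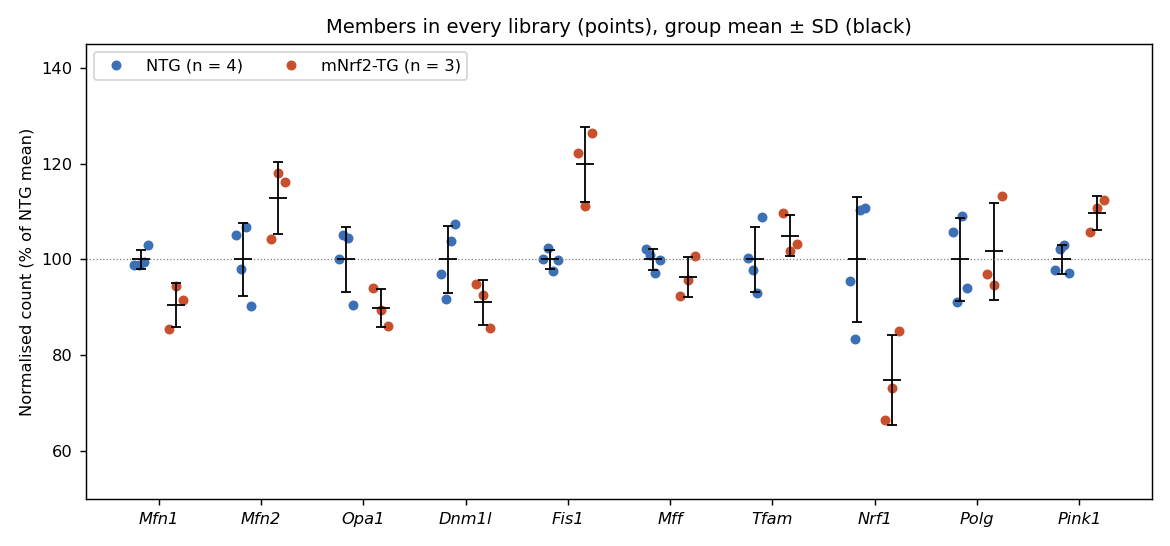
Normalised count of each of the 10 genes in every library, in percent of the mean of the 4 NTG hearts, with points for libraries and black bars for the group mean ± SD. All 3 mNrf2-TG points of Fis1 lie above its 4 NTG points and all 3 of Mfn1 lie below, with mean differences of 19.9% and -9.51%. The points of Polg and Tfam mix, and those of Mff overlap through mNrf2-TG replicate 19.

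The start regions of 3 of these genes are shown because they hold letters bound by known regulators of nuclear mitochondrial genes, and they belong to the called gene and to the fusion genes Mfn1 and Opa1, whose values were below 0. Each is the DNA just before the RefSeq start on the plus strand, 5′ to 3′, from RefSeq in build GRCm38.p6, and ends before the first annotated exon base; in Mfn1 this is 17 bases before the RefSeq start, since an exon begins there in GENCODE. Capitals mark CCGGAAG, the core letters of an ETS site as bound by GABP, in Mfn1 (chr3:32529232-32529464) and Fis1 (chr5:136953025-136953274), and the core letters of an Nrf1 site in Opa1 (chr16:29579084-29579333).
Mfn1: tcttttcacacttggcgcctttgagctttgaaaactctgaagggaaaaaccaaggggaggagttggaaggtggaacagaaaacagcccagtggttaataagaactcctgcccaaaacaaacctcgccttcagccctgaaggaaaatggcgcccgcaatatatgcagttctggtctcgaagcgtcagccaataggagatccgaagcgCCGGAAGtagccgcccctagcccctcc
Fis1: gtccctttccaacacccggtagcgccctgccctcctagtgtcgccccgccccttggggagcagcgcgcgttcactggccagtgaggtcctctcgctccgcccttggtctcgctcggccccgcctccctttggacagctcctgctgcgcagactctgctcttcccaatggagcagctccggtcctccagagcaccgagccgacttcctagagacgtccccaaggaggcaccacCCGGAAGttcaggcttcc
Opa1: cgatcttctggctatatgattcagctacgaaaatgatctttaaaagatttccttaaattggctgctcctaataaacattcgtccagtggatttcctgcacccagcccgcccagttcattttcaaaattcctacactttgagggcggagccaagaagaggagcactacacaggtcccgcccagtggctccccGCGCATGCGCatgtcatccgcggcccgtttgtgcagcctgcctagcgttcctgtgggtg

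The first capital stands 44 bases before the RefSeq start in Mfn1, 18 bases before it in Fis1 and 59 bases before it in Opa1. Within 250 bases before an annotated start, on both strands, CCGGAAG was found for 4 of the 10 genes (Mfn1, Fis1, Tfam and Polg) and for 7.83% of 27025 genes. The Nrf1 core, which is the run of 10 capitals shown in Opa1 with the sixth letter free, was found for 2 of the 10 genes (Opa1 and Pink1) and for 4.23% of all genes. Another 3 patterns were searched in the same windows. TGACNNNGC, the core of the antioxidant response element to which Nrf2 binds, was present for 0 of the 10 genes and for 11.5% of all genes. AAGGTCA, the core of an estrogen-related receptor site, and CACGTG, the E-box, were also present for 0 of 10, beside 4.70% and 6.86% of all genes. No window of the 10 genes held more than 1 match. The windows with CCGGAAG had a share of G and C of 53.6% (Mfn1), 66.8% (Fis1), 72.0% (Tfam) and 58.0% (Polg). The median over all windows was 52.4%. Annotated exons covered 236 of 250 bases of the Tfam window and 204 of the Polg window. The part of base content in the shares with a match was not tested. A match, or its absence in a short window, describes the letters and says nothing of binding.

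Among the fusion genes, Mfn2 had the highest level, and the values of Mfn1 and Mfn2 stood on opposite sides of 0. Mfn1 (Entrez 67414, GRCm38 chr3:32529465-32579239, plus strand) gave 3288, 3293, 3309 and 3427 normalised counts in the NTG hearts and 2843, 3147 and 3047 in the mNrf2-TG hearts. Every mNrf2-TG heart was below every NTG heart, by 9.51% on average. The Log2FC was -0.14 with a standard error of 0.063, and the adjusted p of 0.145 from edgeR missed the threshold (unadjusted p = 0.0448). The NTG spread rested on 1 heart, since 3 of the 4 values lay between 3288 and 3309 and replicate 4 stood above them at 3427.

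Mfn2, which also tethers mitochondria to the endoplasmic reticulum, is at chr4:147873599-147904704 on the minus strand (Entrez 170731). Its normalised counts were 7195, 6703, 7302 and 6176 in NTG and 7132, 8080 and 7952 in mNrf2-TG hearts. Replicate 17 of the mNrf2-TG group fell within the NTG range and the others were above it. The Log2FC of 0.17 ± 0.078 (SE) had an adjusted p of 0.155 (edgeR), and the 95% interval of the change ran from just under 0 to 27.3%. Opa1 (Entrez 74143, chr16:29579334-29654884, plus strand) gave 2775, 2916, 2896 and 2509 in NTG and 2611, 2478 and 2390 in mNrf2-TG hearts. The groups overlapped through NTG replicate 4 and mNrf2-TG replicate 17. Its Log2FC was -0.15 ± 0.074 (SE) with an adjusted p of 0.181, and the 95% interval ran from -19.8% to 0.721%.

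Fis1, an outer-membrane protein with a role in fission and in the removal of mitochondria, was higher in mNrf2-TG hearts. It lies at chr5:136953275-136966234 on the plus strand (Entrez 66437), and none of its 50-base stretches is shared with another annotated gene. Its normalised counts were 620, 634, 603 and 617 in the 4 NTG hearts, a spread of 12.4 (SD) around 619. In the 3 mNrf2-TG hearts they were 755, 688 and 782, a spread of 48.4 around 742. The lowest mNrf2-TG heart was thus above the highest NTG heart, and the NTG values were much closer to each other than the mNrf2-TG values. The NTG SD was 2.01% of the mean, which is below the 3.86% that counting error alone gives at the mean count of Fis1. The narrow NTG spread can therefore not be read as a trait of these hearts. The Log2FC was 0.26 ± 0.070 (SE), or 19.9% higher with a 95% interval of 7.59% to 33.6%, at an adjusted p of 0.0302 (edgeR quasi-likelihood test, n = 4 and 3). The call was kept by DESeq2, limma-voom and limma on rlog values, and was lost when NTG replicate 1, 2 or 4 or mNrf2-TG replicate 17 or 19 was left out, with adjusted p between 0.0564 and 0.105 and Log2FC between 0.23 and 0.28. The direction was the same with each of those libraries left out. Without NTG replicate 1, 2 or 4 the Log2FC was 0.27, 0.28 and 0.26, so it was not lower than with all libraries. Without mNrf2-TG replicate 17 or 19 it was lower, at 0.25 and 0.23. The fits that lost the call called 1373 to 2143 of all genes, against 2519 with all 7 libraries. The fit without mNrf2-TG replicate 18 called 1496 and kept Fis1 (Log2FC 0.31, adjusted p = 0.0322, edgeR). The part of the smaller number of libraries in the lost call was not tested.

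Dnm1l and Mff, the GTPase that cuts the membrane and its main receptor, both gave values just below 0 that did not pass. Dnm1l (Entrez 74006, chr16:16312230-16358959, minus strand) had 1709, 1618, 1830 and 1895 normalised counts in NTG hearts and 1672, 1633 and 1513 in mNrf2-TG hearts. Only mNrf2-TG replicate 19 was below the whole NTG range. Its Log2FC was -0.13 ± 0.076 (SE) with an adjusted p of 0.255, with a 95% interval of -19.1% to 2.47%. An antisense transcript (Gm49521) covers 243 exonic bases of Dnm1l, and since the use of strand in counting is not given, reads there could belong to either. Mff (Entrez 75734, chr1:82724890-82752394, plus strand) had 1311, 1295, 1247 and 1282 in NTG and 1187, 1228 and 1294 in mNrf2-TG hearts. Replicates 17 and 18 of the mNrf2-TG group were below the whole NTG range, and replicate 19 fell within it. Its Log2FC was -0.05 ± 0.064 (SE; adjusted p = 0.606), with a 95% interval of -12.7% to 6.29%.

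**Figure D2:**
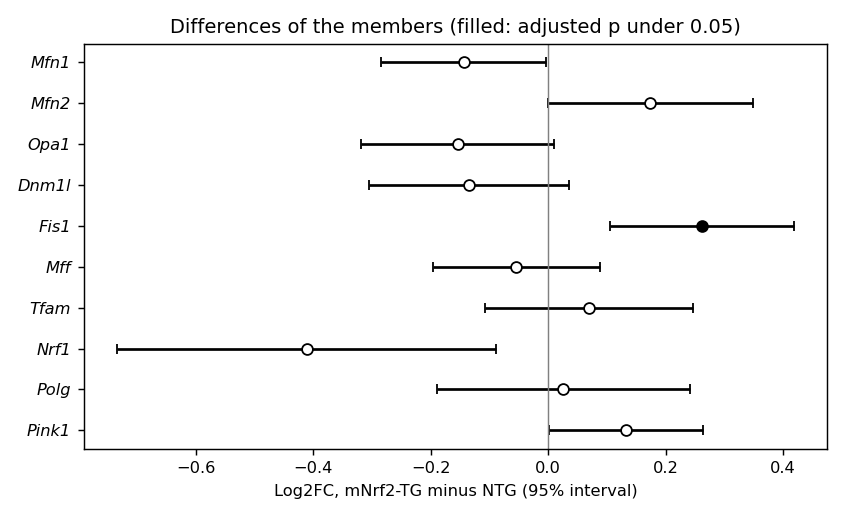
Log2FC of each of the 10 genes (mNrf2-TG minus NTG, point) with its 95% interval (bar) from edgeR's quasi-likelihood fit, filled where the adjusted p is under 0.05. Fis1 at 0.26 is the one filled point, and Nrf1 at -0.41 has the widest interval.

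The genes that serve the mitochondrial genome had values close to 0. Tfam (Entrez 21780, chr10:71225464-71238280, minus strand), which packs mitochondrial DNA and starts its transcription, had 395, 385, 366 and 429 normalised counts in NTG and 433, 401 and 407 in mNrf2-TG hearts. The NTG values enclosed all but the top mNrf2-TG value. Its Log2FC was 0.07 ± 0.080 (SE; adjusted p = 0.596), with a 95% interval of -7.24% to 18.7%. Polg (Entrez 18975, chr7:79446231-79466362, minus strand), the catalytic subunit of the mitochondrial DNA polymerase, had 461, 397, 475 and 410 in NTG and 423, 413 and 494 in mNrf2-TG hearts. Values of both groups were mixed, and the Log2FC of 0.03 ± 0.097 (SE; adjusted p = 0.885) turned to -0.01 without NTG replicate 2 and to -0.06 without mNrf2-TG replicate 19. Polg overlaps Fanci on the opposite strand by 921 exonic bases, and 6.42% of its 50-base stretches occur in another gene as well. No transcript encoded on the mitochondrial chromosome was in the table, so the products of Tfam and Polg activity were not measured here.

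Nrf1, the regulator, had the largest Log2FC in size and the fewest reads of the 10 genes. It lies at chr6:30047988-30153458 on the plus strand (Entrez 18181) and had 70 to 126 reads per library, at which counting error alone is 9.96% of the value. Its normalised counts were 108, 94.5, 125 and 125 in NTG and 75.3, 82.8 and 96.2 in mNrf2-TG hearts. NTG replicate 2 and mNrf2-TG replicate 19 crossed by less than 2 counts, and all other mNrf2-TG values were below all NTG values. The Log2FC was -0.41 ± 0.145 (SE), or -24.8% with a 95% interval of -39.9% to -5.99%. The unadjusted p was 0.0174 and the adjusted p 0.0781 (edgeR), and over 15 other settings the adjusted p stayed between 0.0589 and 0.225.

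Pink1, the kinase that marks depolarised mitochondria, lies at chr4:138313409-138326307 on the minus strand (Entrez 68943). It had 6580, 6867, 6927 and 6530 normalised counts in NTG and 7115, 7448 and 7567 in mNrf2-TG hearts. All 3 mNrf2-TG hearts were above all 4 NTG hearts, with an SD of 2.97% of the mean in NTG and 3.18% in mNrf2-TG hearts. The Log2FC of 0.13 ± 0.059 (SE) corresponds to 9.67% with a 95% interval of 0.132% to 20.1%, and the adjusted p of 0.150 missed the threshold (edgeR; unadjusted p = 0.0473).

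Compared per length, Pink1 and Mfn2 had by far the highest levels of the 10 genes and Nrf1 the lowest. In counts per kb of exon per 1000000 counted reads, the NTG means were 334 ± 9.94 for Pink1, 175 ± 13.2 for Mfn2, 72.3 ± 1.43 for Mfn1 and 47.9 ± 0.963 for Fis1 (SD, n = 4). They were 46.8 ± 3.16 for Opa1, 45.0 ± 3.15 for Dnm1l, 17.5 ± 0.369 for Mff, 11.8 ± 0.791 for Tfam, 5.39 ± 0.472 for Polg and 1.46 ± 0.192 for Nrf1. Fis1, Opa1 and Dnm1l overlapped between libraries in NTG hearts (46.8 to 49.1, 42.3 to 49.2 and 41.3 to 48.4), and all other neighbours in the order were apart. In mNrf2-TG hearts the order of the means was kept, but Fis1 at 53.3 to 60.6 no longer overlapped with Opa1 at 40.3 to 44.0. With the length of the longest transcript in place of all exons, Fis1 in NTG hearts also stood apart from Opa1 and Dnm1l (86.7, 59.1 and 59.1), and in mNrf2-TG hearts it passed Mfn1 (104 against 87.7), so the place of Fis1 in the order depends on the length used.

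**Figure D3:**
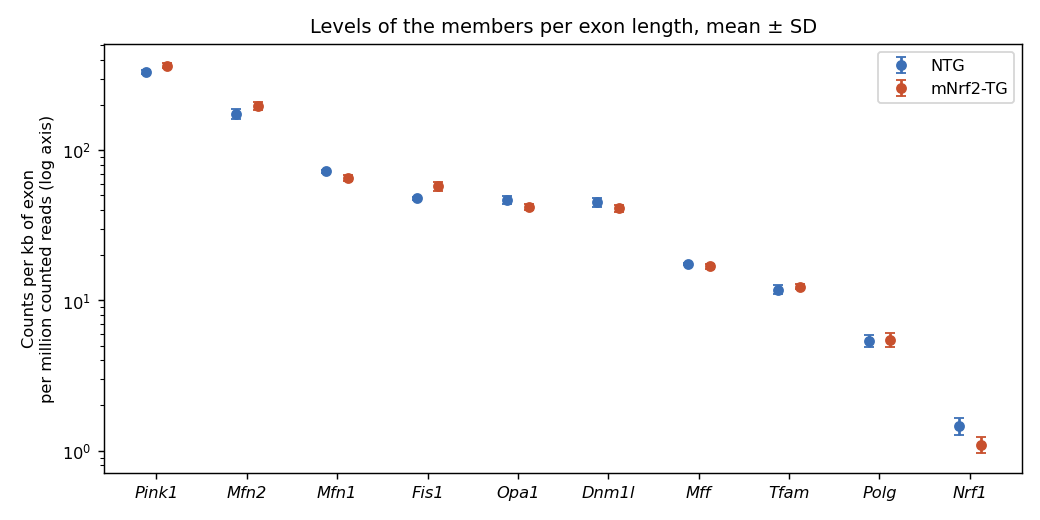
Mean level of each gene per kb of exon per 1000000 counted reads on a log axis, with bars for the SD over 4 NTG and 3 mNrf2-TG libraries, ordered by the NTG mean. Levels span from 334 for Pink1 to 1.46 for Nrf1 in NTG hearts, and the points of Fis1, Opa1 and Dnm1l nearly coincide there at 47.9, 46.8 and 45.0.

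Ratios between partners within a heart do not depend on the scaling of the libraries and were compared for 8 pairs. The pairs were chosen after the values were seen and are given without a test. The per-length ratio of Mfn2 to Mfn1 was 2.58, 2.40, 2.60 and 2.12 in NTG hearts and 2.95, 3.02 and 3.07 in mNrf2-TG hearts. Its mean thus was 1.24 times higher, and the 3 mNrf2-TG ratios were closer to each other than the NTG ratios. The ratio of Opa1 to Mfn2, inner to outer fusion protein, was 0.254 to 0.287 in NTG and 0.198 to 0.241 in mNrf2-TG hearts. The ratio of Fis1 to Dnm1l was 0.989 to 1.19 in NTG and 1.28 to 1.57 in mNrf2-TG hearts, without overlap. The ratio of Mfn2 to Dnm1l was 3.26 to 4.22 in NTG and 4.27 to 5.27 in mNrf2-TG hearts, with the nearest values of the groups only just apart. The other fusion genes against Dnm1l overlapped between the groups, with 1.54 to 1.73 and 1.45 to 1.71 for Mfn1 and 0.875 to 1.19 and 1.003 to 1.044 for Opa1. The ratios of Mff to Dnm1l (0.361 to 0.427 and 0.378 to 0.456) and of Tfam to Polg (1.86 to 2.53 and 1.99 to 2.48) overlapped as well. A ratio does not say which of its genes moved, and Fis1 is the one called gene among them.

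The 10 genes were then set beside 129 other genes of 7 lists of mitochondrial upkeep, of which 14 were called higher and 13 lower in mNrf2-TG hearts. That is 20.9% of them against 17.2% of all genes, with a median Log2FC of -0.08. With a filter of at least 10 counts in every library of 1 group, 2655 of 11906 genes were called, a larger share of all genes. The lists were chosen with earlier results of these data known. By list, the shares called among the other genes were 17.6% for fusion and cristae, 13.3% for fission and 26.3% for biogenesis. They were 4.17% for mitochondrial DNA, 40.0% for mitophagy, 22.2% for transport and 24.0% for outer membrane and import. In the fusion and cristae list, 2 genes were higher and 1 was lower of 20 tested. The calls were on genes around Opa1 and the cristae and not on the fusion GTPases. Chchd6 (Mic25), a subunit of the complex that shapes crista junctions, rose from 54.0 ± 8.42 to 95.1 ± 7.91 normalised counts (Log2FC 0.81 ± 0.151 SE, adjusted p = 0.00680), while its partner Chchd3 (Mic19) fell from 4450 ± 109 to 3122 ± 86.8 (Log2FC -0.51 ± 0.060, adjusted p = 6.70e-04). Oma1, a protease that cleaves Opa1 under stress, was higher (Log2FC 0.28, adjusted p = 0.0310), a call lost without NTG replicate 1 or 2 or mNrf2-TG replicate 17 or 18 (adjusted p = 0.0673 to 0.112).

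In the fission list, 2 of 18 were higher, Fis1 and Pgam5, and 1 was lower. Pgam5, a mitochondrial phosphatase, had a Log2FC of 0.29 (adjusted p = 0.0353), and Dnm2, a dynamin that works chiefly at the plasma membrane, had -0.46 (adjusted p = 0.00378). The adaptors Mief1 and Mief2, which like Mff and Fis1 bring Dnm1l to the membrane, did not pass (Log2FC 0.05 and 0.24, adjusted p = 0.754 and 0.366). Of the receptors of Dnm1l that were tested, only Fis1 therefore had a call, and the difference between receptors was not tested. The call of Pgam5 was lost with DESeq2 (adjusted p = 0.0681) and without any 1 library other than NTG replicate 3 (0.0545 to 0.120).

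The list of biogenesis regulators, which contains Nrf1, held 4 lower and 1 higher of 20. Ppargc1a (PGC-1α), the coactivator that works with Nrf1, had 4167, 5955, 7441 and 3296 normalised counts in NTG hearts and 2947, 2035 and 1293 in mNrf2-TG hearts. Every mNrf2-TG heart was lower, yet within each group the highest heart was more than 2-fold above the lowest. Its Log2FC of -1.32 ± 0.312 (SE) had an adjusted p of 0.0184, which rose to 0.0639 without mNrf2-TG replicate 18 and to 0.0583 without replicate 19. Ppara and Esrrg, nuclear receptors that switch on fatty acid oxidation and respiratory genes with Ppargc1a, fell with Log2FC of -0.70 and -0.35 (adjusted p = 0.00225 and 0.0119), of which Esrrg lost its call without mNrf2-TG replicate 17 (adjusted p = 0.0538). Ncor1, a corepressor that opposes such receptors, also fell (Log2FC -0.43, adjusted p = 0.00555), so the lower calls included factors of both signs. Prkaa2, the catalytic α2 subunit of the energy sensor AMPK, rose (Log2FC 0.53, adjusted p = 0.00579). Gabpa and Gabpb1, which form GABP, gave -0.22 and -0.31 and did not pass (adjusted p = 0.0741 and 0.0674).

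Around Tfam and Polg, 1 of 26 genes of mitochondrial DNA upkeep and transcription was called. Tk2, the mitochondrial thymidine kinase, went from 60.8 ± 13.1 to 92.5 ± 2.02 normalised counts (Log2FC 0.60 ± 0.171 SE, adjusted p = 0.0389), and lost its call without NTG replicate 1 or 4 or any 1 mNrf2-TG heart (adjusted p = 0.0516 to 0.102). The helicase Twnk gave -0.27 (adjusted p = 0.0541), the polymerase Polrmt 0.22 (adjusted p = 0.120) and the factor Tfb2m, which starts transcription with Tfam, -0.04 (adjusted p = 0.796). The list's summed level was 6031 to 6188 in NTG and 5890 to 6395 in mNrf2-TG hearts, so the groups overlapped.

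**Figure D4:**
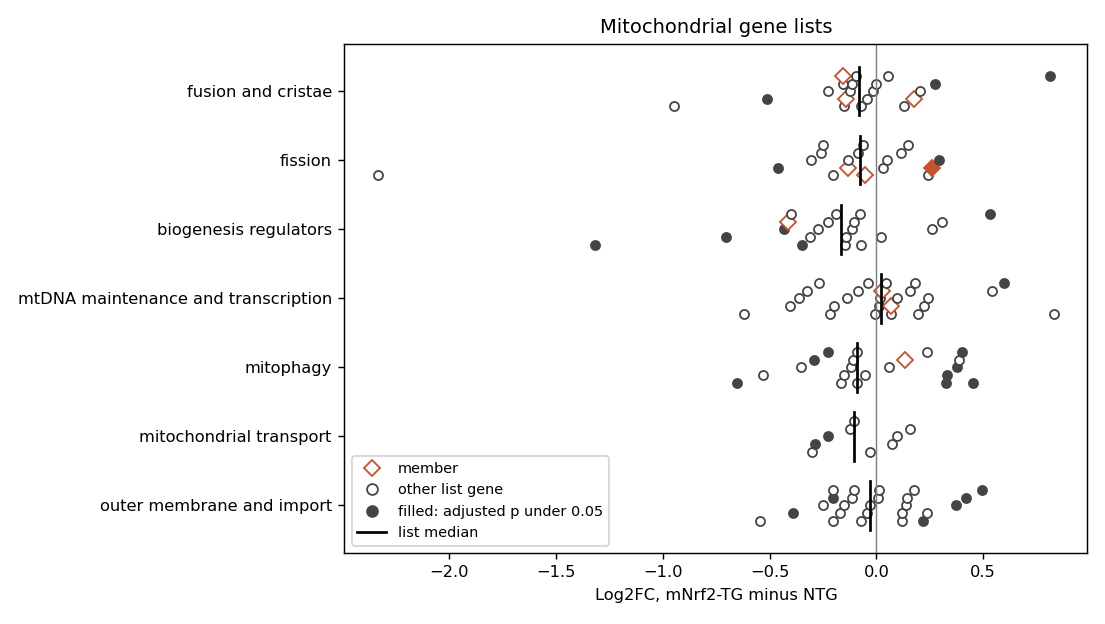
Log2FC (mNrf2-TG minus NTG) of every tested gene of the 7 lists, 1 row for each list, with diamonds for the 10 genes of interest, circles for the other genes, filled marks for an adjusted p under 0.05 and a bar for the list's median. All 7 medians lie between -0.17 and 0.02; Ppargc1a at -1.32 is the farthest called gene, and the open point beyond it is Gdap1 (adjusted p = 0.348).

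Beside Pink1, the mitophagy list had 5 higher and 3 lower of 21 tested, and 40.0% of its other 20 genes were called beside 17.2% of all genes. Fits without 1 library called 4 to 9 genes of this list. Higher were Sqstm1 (p62), an autophagy adaptor known as an Nrf2 target (Log2FC 0.45, adjusted p = 0.0248), and Park7 (DJ-1), a redox-sensing protein linked to mitochondrial damage (0.40, adjusted p = 0.00852). Tomm7, which helps to hold Pink1 at the outer membrane, gave 0.38 (adjusted p = 0.00822) and Fkbp8, an outer-membrane mitophagy receptor, gave 0.33 (adjusted p = 0.0355). The fifth, the segregase Vcp, named after its value was seen, had a Log2FC of 0.33 (adjusted p = 0.0176). Lower were Optn, an autophagy receptor that acts downstream of Pink1 (Log2FC -0.65, adjusted p = 6.11e-04), the receptor Bcl2l13 (-0.29, adjusted p = 0.0122) and the deubiquitinase Usp15 (-0.23, adjusted p = 0.0312). Receptors and adaptors of mitophagy were therefore called in both directions. Calls were lost for Sqstm1 without mNrf2-TG replicate 17 or 18 (adjusted p = 0.0863 and 0.0951), for Fkbp8 without NTG replicate 2 or 4 or any 1 mNrf2-TG heart (0.0688 to 0.123), and for Usp15 without NTG replicate 1 or 2 or any 1 mNrf2-TG heart (0.0793 to 0.0937) and with the library total alone as scale (0.0654). Macrophages and other cells express several genes of this list too, and the part of the higher leukocyte markers in these calls was not tested.

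Among transport genes, 0 were higher and 2 of 9 were lower, Rhot2 (Miro2, Log2FC -0.29, adjusted p = 0.0258) and the motor adaptor Trak2 (-0.23, adjusted p = 0.0398). Rhot2 lost its call without NTG replicate 1 or any 1 mNrf2-TG heart (adjusted p = 0.0648 to 0.0875), and Trak2 without any 1 library other than NTG replicate 3 (0.0713 to 0.140) and with the library total alone (0.0673). Of 25 outer membrane and import genes, 4 were higher, the carrier translocase Timm22 (0.49), the small intermembrane-space chaperones Timm9 (0.42) and Timm13 (0.37), and the pore Vdac3 (0.22), with adjusted p between 0.0178 and 0.0469. The 2 lower genes were Timm23, the channel of the presequence pathway (-0.39, adjusted p = 0.0230), and Cs, citrate synthase of the matrix, often read as a sign of mitochondrial content (-0.21, adjusted p = 0.0461). Timm9 was not called by DESeq2, limma-voom or limma on rlog values (adjusted p = 0.0709, 0.0510 and 0.0511), nor without any 1 library other than mNrf2-TG replicate 18 (0.0521 to 0.171). The other calls of this list were also lost when single libraries were left out: Vdac3 without any but NTG replicate 3 (adjusted p = 0.0513 to 0.126), Timm13 without any but NTG replicate 3 or mNrf2-TG replicate 18 (0.0670 to 0.114), Timm22 without mNrf2-TG replicate 17 (0.0756), Timm23 without NTG replicate 2 or mNrf2-TG replicate 17 or 18 (0.0564 to 0.0848), and Cs without any but NTG replicate 4 (0.0614 to 0.141) or with the library total alone (0.0774). The summed level of this list was 52413 to 55946 normalised counts in the NTG hearts against 50558 to 51941, beside the lower cardiomyocyte markers given above. The sum is weighted to abundant genes, of which Cs was the highest with means of 15971 in NTG and 13855 in mNrf2-TG hearts. It does not describe the list gene by gene, since 4 of the called genes were higher.

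The genes most alike in profile to the 10 were sought among the other listed genes and the members themselves, 128 for each, as the smallest root mean square difference of mean-centred log2 levels over the 7 libraries. Pink1 and Timm50 (0.037) and Mff and Samm50 (0.043) were the closest pairs, followed by Tfam and Tomm20 (0.044), Mfn1 and Samm50 (0.045) and Opa1 and Rrm2b (0.048). Fis1 was closest to Parl (0.053), a protease that cleaves Pink1, which itself was not called. The nearest gene of Mfn2 was Pink1 (0.073), the only pair within the 10 genes, and that of Dnm1l was Rhot1 (0.058). Polg and Mapt (0.092) and Nrf1 and Dnm2 (0.113) were the least alike. These distances describe 7 libraries, carry no test and include the difference between the groups.

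**Figure D5:**
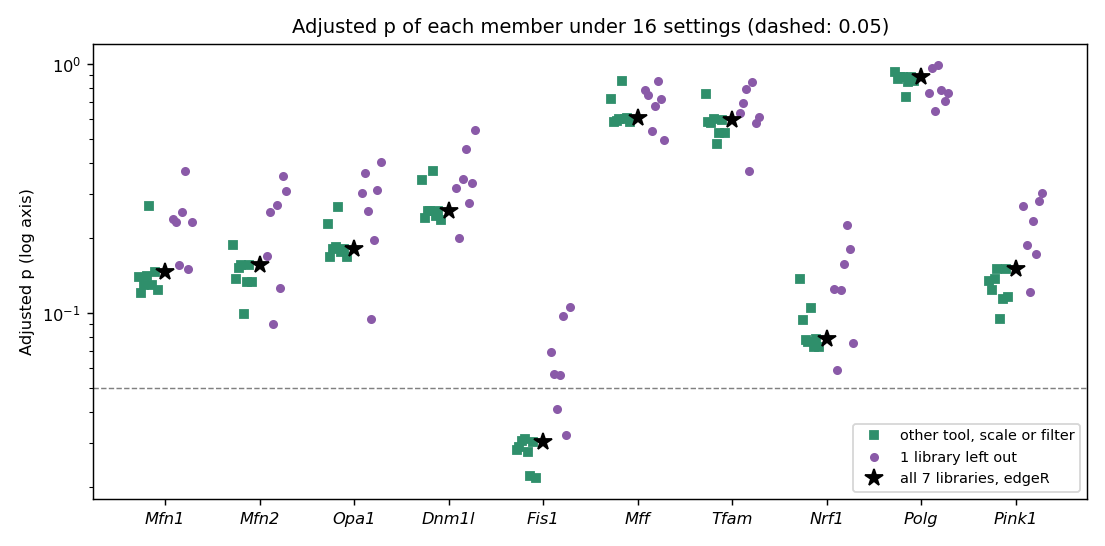
Adjusted p of each of the 10 genes on a log axis under 16 settings, with a star for edgeR on all 7 libraries, squares for 8 other tools, scales or filters and circles for 7 fits without 1 library, and a dashed line at 0.05. Points below the line belong to Fis1 alone, which 5 of the 7 fits without 1 library place above it, and the lowest point of Nrf1 is at 0.0589.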

How the data were processed

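RNA of 4 NTG and 3 mNrf2-TG hearts was sequenced as stranded poly(A) libraries with single reads; per the methods, the authors aligned reads with Novoalign (2.08.01) to an index with Ensembl transcripts. The methods name hg19 for the index and mm10 (GRCm38) for mapping, and the counting program and use of strand are not given in the sources used here. The authors deposited raw counts, log2-scale rlog values and a mean signal of normalised counts from DESeq2 (1.32.0). Their fold change and p-value columns were not used.

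After 24 repeat entries were removed, genes with a summed count above 1 (14637) were fitted with edgeR (4.0.16; R 4.3.3), TMM scaling and the quasi-likelihood test, with Benjamini-Hochberg adjustment over all genes and a threshold of 0.05. The standard error is the size of the Log2FC divided by the square root of F. DESeq2 (1.42.0), limma (3.58.1) and other scales and filters were alternatives. The code was tested on simulated data. Counting intervals cover counting error only.

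Exon lengths and overlaps came from GENCODE M21, and start regions from 32851 RefSeq entries. The 10 genes and all lists were chosen with earlier results of these data known. Named genes are the 10, called list genes (at most 4 in each direction for each list), partners and the nearest gene by profile. Of 131 other listed genes 129 were tested. The value of 1 partner gene is not reported here.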

Additional observations from a re-analysis of the deposited data

Results flagged for a closer look

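In 36 groups of 4 NTG values examined (the 10 genes and the named list genes), 2 had 1 heart far from the others by Dixon's criterion, which chance alone meets in about 1 of 20 groups. Mfn1 was 3427 normalised counts in NTG replicate 4 against 3288 to 3309 in the other 3 NTG hearts, a gap of 0.850 of the group's range. Pgam5 was 259 in NTG replicate 3 against 242 to 244 in the others, a gap of 0.885 of the range.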

How the results depend on the processing

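Under 15 alternatives, 9 of the 10 genes kept their side of the threshold, and 143 of 150 values kept side and direction. The exception was Fis1, whose Log2FC without NTG replicate 1, 2 or 4 was 0.27, 0.28 and 0.26 (adjusted p = 0.0693, 0.0566 and 0.0564) and without mNrf2-TG replicate 17 or 19 was 0.25 and 0.23 (adjusted p = 0.0970 and 0.105), within a leave-one-out range of 0.23 to 0.31. Polg reversed to -0.0108 without NTG replicate 2 and to -0.0559 without mNrf2-TG replicate 19, within a range of -0.0559 to 0.0749. Fits without 1 library use fewer samples and called 1373 to 2950 of all genes and 0 to 1 of the 10. They called 1 to 5 fission, 0 to 4 mitochondrial DNA, 4 to 9 mitophagy, 0 to 2 transport, 0 to 8 outer membrane and import, 4 to 7 biogenesis and 2 to 4 fusion genes. The mitochondrial DNA count was 2 with rlog values, 2 with filterByExpr and 4 with at least 10 counts in every library of 1 group, and the transport count was 1 with the library total alone; the cause was not tested. Of 26 named list genes, 10 kept their call under all 15 alternatives (Chchd3, Chchd6, Dnm2, Ppara, Ncor1, Prkaa2, Optn, Bcl2l13, Tomm7 and Park7) and 16 lost it under at least 1.

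With the longest transcript as length, NTG levels per kb were 376 for Pink1, 209 for Mfn2, 96.9 for Mfn1, 86.7 for Fis1, 59.1 for Opa1, 59.1 for Dnm1l, 43.5 for Mff, 7.39 for Polg and 3.72 for Nrf1. In mNrf2-TG hearts they were 413, 236, 87.7, 104, 53.2, 53.8, 41.9, 7.51 and 2.79 in that order, and 13.2 for Tfam. No paired analysis was possible because the groups share no replicate numbers. Depth limits Nrf1 most, with 70 to 126 reads per library.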
